A study of Homo sapiens with 68 samples.

Results

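The insulin-like growth factor (IGF) axis was followed in A673 cells, a human Ewing sarcoma line that carries the EWS/FLI fusion. Its members were chosen by gene name, with earlier results of these data known. They are the ligand IGF1, the receptors IGF1R and IGF2R, the adaptor IRS1, and the binding proteins IGFBP2, IGFBP3, IGFBP4, IGFBP5, IGFBP6 and IGFBP7. By the platform annotation these 10 genes, of 11882 with a symbol, have 23 of the 22215 probe sets tested. The cells were grown with cytarabine (ARA-C, a nucleoside analog that blocks DNA synthesis) at 0.17 or 0.34 uM, doxorubicin (a topoisomerase II poison) at 59.88 or 119.76 nM, or puromycin (an inhibitor of protein synthesis) at 0.09 or 0.18 uM, the lower dose of each being its EC50 and the higher 2 × EC50. Vehicle cells received DMSO. RNA was taken after 24 h, 3 days and 5 days and hybridized to Affymetrix high-throughput U133 arrays. Groups of treated arrays held 3 each; doxorubicin 119.76 nM on day 5 held 2 and puromycin 0.18 uM on day 5 held 1. Vehicle had 6 arrays at 24 h, 5 on day 3 and 6 on day 5. The labels call the replicates biological. An array of puromycin 0.09 uM on day 5 (replicate 3) was left out, so that 2 remained, and 67 of the 68 arrays entered the fit. A673 is 1 line, and the arrays measured bulk RNA, so that fewer cells of a kind and less RNA per cell cannot be told apart.

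IGF1 binds IGF1R, a receptor tyrosine kinase, which passes its signal through IRS1 to the PI3K-AKT and MAPK pathways and so favors growth and survival. IGF2R has no kinase activity of its own and carries IGF2 and lysosomal enzymes into the cell. The IGF-binding proteins are secreted and hold the ligands away from the receptor or bring them to it, and several are cut by proteases that release the ligand. Ewing sarcoma cells are known to depend on IGF signaling.

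Promoter windows from 250 bases before to 50 after the transcript start (RefSeq, GRCh38.p14) were found for 9 of the 10 genes, 12 windows in all. The windows of IGFBP3 (chr7:45921223-45921522, minus strand) and IGFBP5 (chr2:216695500-216695799, minus strand) are printed because those transcripts had the largest rises among the members, and the window of IGF1R (chr15:98648289-98648588, plus strand) because it is the receptor that fell. Each reads 5′ to 3′ along the gene, and capitals mark matches to any of 4 motifs searched on both strands.
IGFBP3: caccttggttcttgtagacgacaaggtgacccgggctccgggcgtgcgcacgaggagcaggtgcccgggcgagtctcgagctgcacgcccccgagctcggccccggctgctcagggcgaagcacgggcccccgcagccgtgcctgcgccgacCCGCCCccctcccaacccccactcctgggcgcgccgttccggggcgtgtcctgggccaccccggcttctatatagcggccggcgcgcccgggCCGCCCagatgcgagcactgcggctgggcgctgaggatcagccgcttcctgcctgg
IGFBP5: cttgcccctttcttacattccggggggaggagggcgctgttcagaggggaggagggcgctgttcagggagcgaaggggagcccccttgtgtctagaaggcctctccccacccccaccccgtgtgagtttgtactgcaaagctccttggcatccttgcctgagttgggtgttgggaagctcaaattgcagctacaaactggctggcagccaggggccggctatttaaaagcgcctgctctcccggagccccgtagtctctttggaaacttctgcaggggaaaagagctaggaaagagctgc
IGF1R: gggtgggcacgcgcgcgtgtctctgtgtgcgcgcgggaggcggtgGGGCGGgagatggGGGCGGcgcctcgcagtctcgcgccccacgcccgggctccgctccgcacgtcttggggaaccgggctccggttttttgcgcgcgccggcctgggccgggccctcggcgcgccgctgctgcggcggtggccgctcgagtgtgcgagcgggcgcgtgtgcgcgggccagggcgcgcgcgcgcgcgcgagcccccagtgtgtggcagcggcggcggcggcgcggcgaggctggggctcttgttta
The motifs were GGGCGG (the GC box), TATAAA (the TATA box), TGANTCA (the AP-1 site) and GGAAGGAA, a pair of the GGAA repeats to which EWS/FLI is known to bind. The windows of IGFBP3 and IGF1R held 2 GC boxes each and that of IGFBP5 held none. GGGCGG was present in 8 of the 12 member windows and in 45% of 35116 windows genome-wide. TATAAA was in 1 member window, that of IGFBP4, 29 bases before the start, and in 11.5% of all windows. TGANTCA and GGAAGGAA were in 0 of the 12 member windows, against 7.71% and 3.67% of all. A match is a description of the letters and not evidence of a site in use.

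Signals are MAS5 values on a linear scale, and changes are log2 differences of signals raised to a floor of 10. Where arrays lie under 10, a log2 difference depends on the floor and its size is uncertain. The share of probe sets under 10 was between 0.221% and 22.4% per array (median 19.9%). The arrays of ARA-C 0.17 uM day 3 replicate 3 (0.221%), ARA-C 0.34 uM 24 h replicate 2 (0.941%) and puromycin 0.18 uM day 5 (5.80%) stood apart, and their dim probe sets read high. The ratio of 3′ to 5′ ACTB probe sets, a sign of RNA quality, was on day 5 between 0.53 and 2.08 in vehicle on the log2 scale. It was between 4.10 and 5.00 in doxorubicin 119.76 nM and between 2.88 and 5.07 in ARA-C 0.17 uM. In doxorubicin 59.88 nM it was 2.13 to 2.93, in puromycin 0.09 uM 2.10 to 2.45 and on the puromycin 0.18 uM array 4.13. Only ARA-C 0.34 uM (1.25 to 1.99) lay within the vehicle range. The part of this ratio in the day 5 changes, those of puromycin included, was not tested. The study's sample sheet places vehicle replicates 1 to 3 in plate rows A-F and 4 to 6 in rows G-H; all ARA-C 0.34 uM arrays and the puromycin 0.18 uM day 5 array lay in rows G-H, and all other treated arrays in rows A-F. Of the markers fixed for A673 cells, 6 of 7 had probe sets, and their summed signal was 17404 to 47322 on the arrays kept. That of 7 of 9 blood cell markers was 36.0 to 396, against 68886 on the array left out, and that of 6 of 6 mesenchymal markers was 2606 to 13417.

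After 3 to 5 days ARA-C and doxorubicin raised most of the binding proteins and lowered 1 of the 3 IGF1R probe sets, 203628_at. Doxorubicin also lowered IGF1R 203627_at, though at 59.88 nM that call was lost with quantile normalization. Puromycin 0.09 uM lowered IGFBP2, IGFBP4, IGFBP6 and 1 of the 5 IGFBP5 probe sets, 211959_at. At 0.18 uM on day 3 only IGFBP2 and IGFBP6 were called lower. A value over days 3-5 averages the differences from vehicle on day 3 and on day 5. With doxorubicin 59.88 nM, 16 of 23 member probe sets rose and 3 fell, against 13.6% and 27.2% of all probe sets tested (limma, adjusted p under 0.05). At 119.76 nM, 13 rose and 5 fell, against 16.6% and 33.6%. With ARA-C, 12 rose and 2 fell at 0.17 uM, against 17.8% and 31.4%, and 16 rose and 1 fell at 0.34 uM, against 14.9% and 15.5%. With puromycin 0.09 uM, 1 rose and 6 fell, against 4.93% and 13.6%, and on day 3 at 0.18 uM 0 rose and 2 fell, against 4.41% and 7.19%. The median log2 change of the 23 was 0.94 and 1.25 with ARA-C 0.17 and 0.34 uM, 1.10 and 0.87 with doxorubicin 59.88 and 119.76 nM, and -0.14 with puromycin 0.09 uM. Over all probe sets the median lay between -0.10 and 0.02 in these comparisons. Probe sets of one gene share their transcript, and all comparisons of a day share the vehicle arrays.

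**Figure D1:**
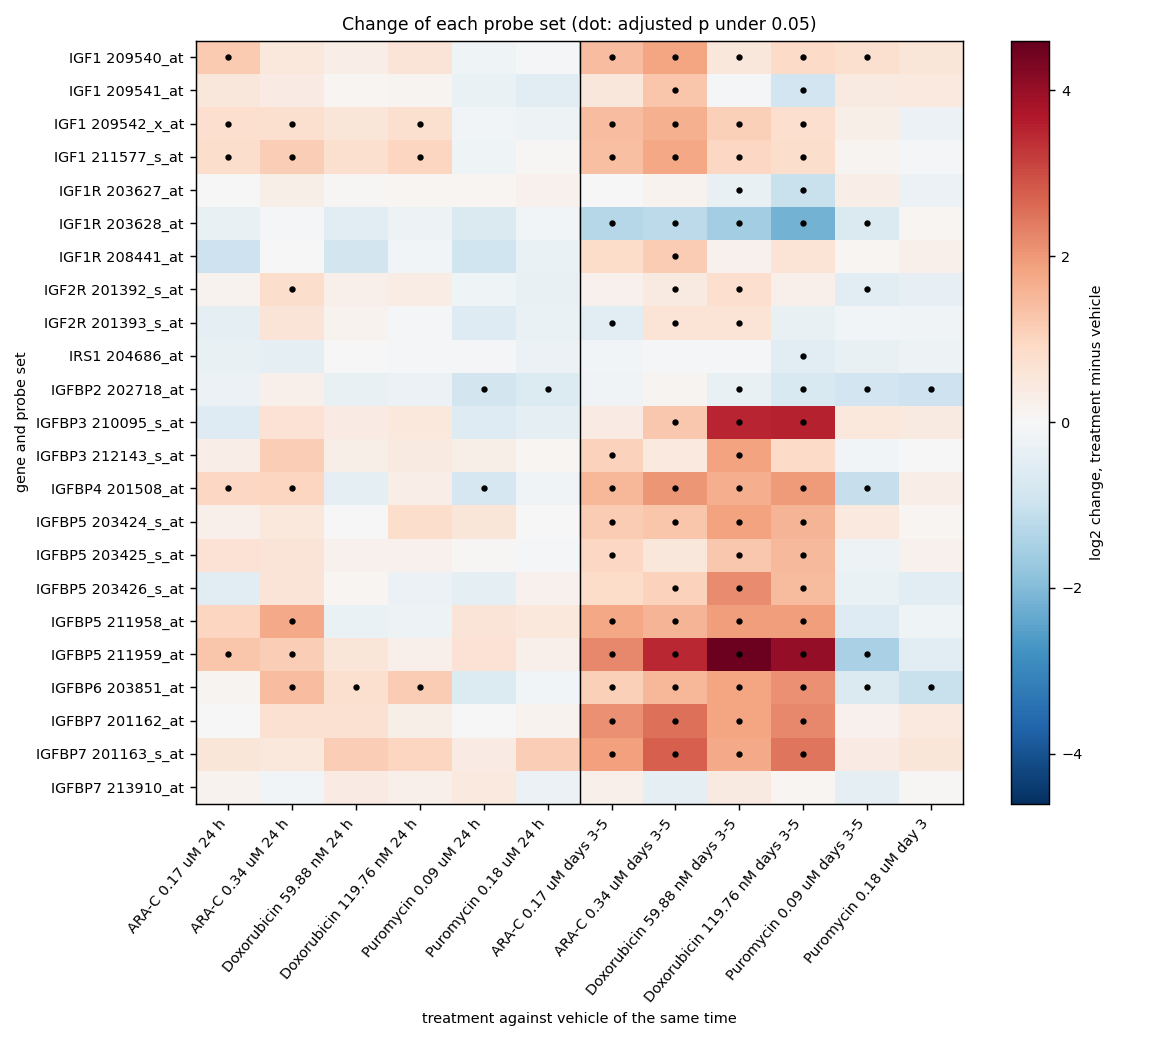
Log2 change of each of the 23 member probe sets (rows) in each treatment against vehicle of the same time (columns; colour scale in log2 units, dots for an adjusted p under 0.05 by limma). The columns for ARA-C and doxorubicin over days 3-5 are above 0 (red) in the IGFBP3 to IGFBP7 rows, apart from IGFBP7 213910_at in ARA-C 0.34 uM (-0.42, not called), and blue in the IGF1R 203628_at row, with the highest value, 4.52, for IGFBP5 211959_at in doxorubicin 59.88 nM.

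IGFBP5, a secreted protein that also binds extracellular matrix, had the largest change (probe set 211959_at). On day 3 its signal was 1168, 1009 and 1167 in doxorubicin 59.88 nM and 839, 806 and 837 in 119.76 nM, against 49.0, 37.7, 43.8, 48.6 and 60.5 in vehicle. On day 5 it was 2051, 2276 and 2537 in doxorubicin 59.88 nM and 1285 and 1894 in 119.76 nM, against a range of 64.0 to 159 (median 102) in vehicle. With ARA-C 0.17 uM it was 177, 226 and 314 on day 3 and 609, 221 and 652 on day 5. In ARA-C 0.34 uM the signal was 500, 340 and 433 on day 3 and 1458, 1221 and 1653 on day 5. None of these arrays overlapped vehicle. The log2 change over days 3-5 was 4.52 (SE 0.26, 22.9-fold, adjusted p = 9.46e-21) for doxorubicin 59.88 nM and 4.03 (SE 0.28) for 119.76 nM, and 2.21 (SE 0.26, adjusted p = 3.7e-10) and 3.48 (SE 0.26) for ARA-C 0.17 and 0.34 uM. Puromycin moved this probe set the other way. The signal in puromycin 0.09 uM was 39.2, 2.67 and 27.6 on day 3 and 53.4 and 14.6 on day 5, a fall (log2 change -1.48, SE 0.28, adjusted p = 7.32e-05) that was not called on day 3 alone (-1.10, adjusted p = 0.095). The other 4 IGFBP5 probe sets were not called in puromycin 0.09 uM, with log2 changes of -0.59 to 0.46. On day 3, 1 of 3 puromycin arrays lay within the vehicle range, and on day 5 neither did. The other 4 IGFBP5 probe sets all rose in both doses of doxorubicin, by log2 1.24 to 2.17 at 59.88 nM. They correlated with 211959_at over the 67 arrays at r of 0.58 to 0.77. On day 3 alone 203424_s_at and 203425_s_at were not called at either dose, nor was 203426_s_at at 119.76 nM (1.09, adjusted p = 0.154). At 119.76 nM 203426_s_at also lost its call against vehicle of the same plate rows (1.01, adjusted p = 0.0744). With a floor of 32 both 203426_s_at (0.28, adjusted p = 0.17) and 203424_s_at (0.31, adjusted p = 0.0578) lost theirs at that dose. For 203425_s_at the call in ARA-C 0.17 uM rests on an array that stood apart, which read 408, against 70.3 and 25.0 in its replicates; without it the log2 change was 0.39 (adjusted p = 0.428).

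IGFBP3, the main IGF carrier in serum, rose mainly with doxorubicin. Probe set 210095_s_at read 177, 135 and 150 on day 3 and 323, 277 and 308 on day 5 in doxorubicin 59.88 nM. In 119.76 nM it read 253, 201 and 180 on day 3 and 220 and 229 on day 5. In vehicle it read 44.8, 28.6, 1.81, 18.1 and 20.8 on day 3 and 2.24 to 33.7 (median 10.8) on day 5, so that every doxorubicin array stood above every vehicle array. The log2 change was 3.52 (SE 0.37, 11.4-fold, adjusted p = 1.73e-11) at 59.88 nM and 3.53 (SE 0.40, adjusted p = 8.3e-11) at 119.76 nM. As some vehicle arrays of both days were under the floor of 10, these folds depend on the floor and their size is uncertain. In ARA-C 0.34 uM the signal was 46.5, 31.9 and 34.6 on day 3 and 30.5, 77.7 and 65.5 on day 5, a log2 rise of 1.25 (SE 0.37, adjusted p = 0.00652) with overlap on both days. It was not called on day 3 alone (0.78, adjusted p = 0.383) or with a floor of 32 (0.44, adjusted p = 0.0536). The lower ARA-C dose gave no call, and the arrays of day 5 read 1.60, 4.80 and 43.7. The other probe set, 212143_s_at, was near or under the floor in vehicle and rose in doxorubicin 59.88 nM (log2 1.84, adjusted p = 4.92e-05). At 119.76 nM it was not called over days 3-5. There it read 42.0, 67.7 and 33.6 on day 3, above every vehicle array, and 17.0 and 4.37 on day 5, within the vehicle range. It was also called in ARA-C 0.17 uM (log2 1.05, adjusted p = 0.0171), where the day 3 array that stood apart read 51.7, against 3.87 and 10.1 in its replicates. Without that array the change was 0.65 (adjusted p = 0.171), without day 5 replicate 2, which read 100.7, it was 0.73 (adjusted p = 0.121), and on day 3 alone it was 0.48 (adjusted p = 0.514). Its correlation with 210095_s_at was 0.36.

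IGFBP7, a secreted protein that binds IGFs with low affinity, rose in both drugs from a dim baseline. Probe set 201163_s_at read 110, 87.0 and 97.6 on day 3 and 202, 216 and 244 on day 5 in ARA-C 0.34 uM, against 20.2, 16.1, 33.5, 28.3 and 36.7 on day 3 and 1.60 to 34.1 (median 21.4) on day 5 in vehicle. The groups did not overlap. In ARA-C 0.17 uM it read 43.8, 62.8 and 188 on day 3, the last on the array that stood apart, and 90.5, 64.4 and 103 on day 5. Doxorubicin 59.88 nM gave 81.5, 79.7 and 57.6 on day 3 and 77.8, 90.6 and 63.1 on day 5. The log2 change was 1.90 and 2.73 in ARA-C 0.17 and 0.34 uM (SE 0.30 each, adjusted p = 5.41e-07 and 1.32e-10) and 1.75 and 2.48 in doxorubicin 59.88 and 119.76 nM. Probe set 201162_at rose in all 4 treatments too (log2 1.83 to 2.54). On day 5 it read 18.3, 5.68 and 105 in doxorubicin 59.88 nM and 94.0 and 7.66 in 119.76 nM. At each dose 1 of these arrays stood above the vehicle arrays, which reached 24.5. Probe set 213910_at, dim on most arrays, was not called in any of the 4 treatments.

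IGFBP4, which restrains IGF action until a protease cuts it, read 1205, 1262 and 1396 in doxorubicin 59.88 nM on day 3 and 1287, 1371 and 1375 in ARA-C 0.17 uM, against 365, 308, 211, 240 and 222 in vehicle (201508_at). No array overlapped. On day 5 it read 1464, 1402 and 1420 in doxorubicin 59.88 nM and 1342, 892 and 1267 in ARA-C 0.17 uM. Vehicle on day 5 read 465, 432 and 420 in plate rows A-F and 1106, 932 and 1278 in rows G-H, so 2 of 3 ARA-C 0.17 uM arrays fell within the whole vehicle range but all above that of rows A-F. The log2 change over days 3-5 was 1.54 and 2.03 in ARA-C 0.17 and 0.34 uM (SE 0.18 each, adjusted p = 2.04e-10 and 7.9e-14) and 1.66 (SE 0.18) and 1.95 (SE 0.19) in doxorubicin 59.88 and 119.76 nM. Against vehicle of the same plate rows these were 1.70, 1.81, 1.82 and 2.11. In puromycin 0.09 uM it read 240, 170 and 175 on day 3 and 191 and 260 on day 5, a log2 change of -1.05 (SE 0.19, adjusted p = 4.48e-05), and -0.89 against vehicle of the same rows. On day 3 alone it was -0.45 and was not called (adjusted p = 0.482). In puromycin 0.18 uM on day 3 IGFBP4 read 333, 278 and 372 and was not called, with 1 of the 3 arrays above every vehicle array.

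IGFBP6, which prefers IGF2, rose in every ARA-C and doxorubicin group over days 3-5 without overlap with vehicle (203851_at). It read 353, 396 and 369 on day 3 and 299 and 315 on day 5 in doxorubicin 119.76 nM, against 101, 68.4, 105, 70.9 and 84.0 on day 3 and 58.4 to 90.1 (median 77.8) on day 5 in vehicle. The 0.17 uM ARA-C arrays read 149, 170 and 218 on day 3 and 217, 115 and 180 on day 5. The log2 change was 1.11 (SE 0.15, adjusted p = 2.41e-08) and 1.52 in ARA-C 0.17 and 0.34 uM, and 1.83 and 2.10 (SE 0.15 and 0.16) in doxorubicin 59.88 and 119.76 nM. In puromycin 0.18 uM on day 3 it read 42.0, 39.5 and 43.6, below every vehicle array, a log2 change of -1.02 (SE 0.22, adjusted p = 0.000631). In 0.09 uM over days 3-5 it was -0.68 (SE 0.16, adjusted p = 0.002), a call lost when arrays were scaled to a common median (-0.33, adjusted p = 0.191) or quantile normalized (-0.32, adjusted p = 0.185).

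**Figure D2:**
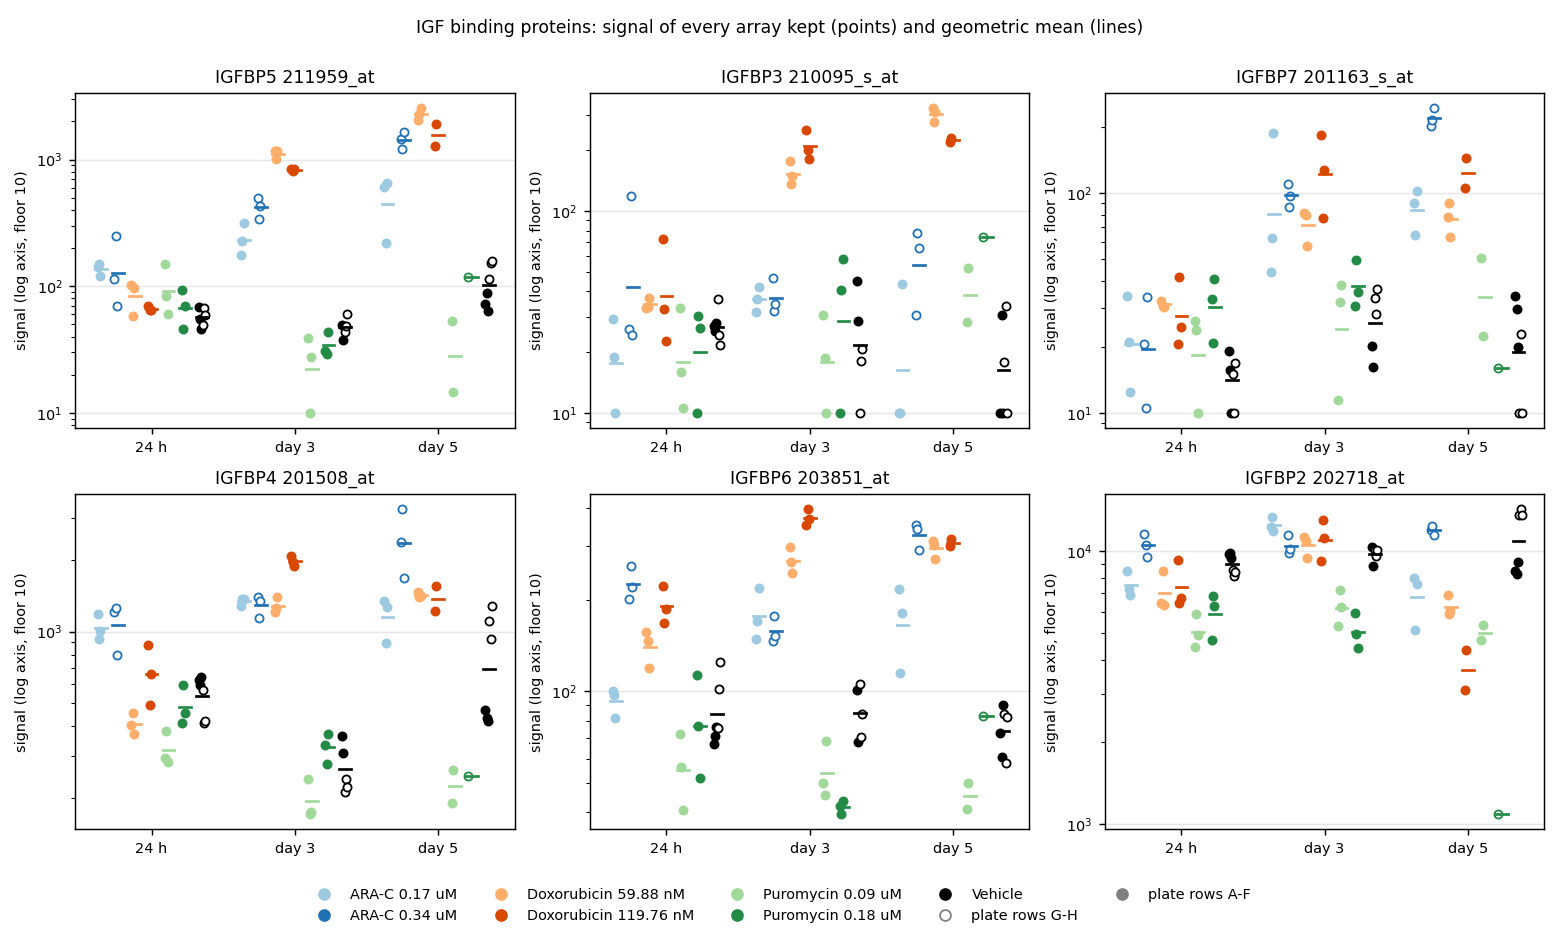
Signal (log axis, values under 10 drawn at 10) of the binding proteins on each array at 24 h, day 3 and day 5, with points for arrays, lines for the geometric mean, and open points for plate rows G-H. On days 3 and 5 the doxorubicin points of IGFBP3 210095_s_at and IGFBP5 211959_at lie above all vehicle points, and the puromycin points of IGFBP2 lie below all vehicle points.

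IGFBP2, which is highly expressed in many tumors, fell with puromycin at 24 h and over days 3-5 (202718_at). It read 5298, 7198 and 6266 in puromycin 0.09 uM and 5921, 4976 and 4400 in 0.18 uM on day 3, against 10380, 8842, 10095, 9584 and 10097 in vehicle. On day 5 it read 4707 and 5359 in puromycin 0.09 uM, and 1086 on the array of 0.18 uM that stood apart, against 8270 to 14222 in vehicle. No puromycin array reached the vehicle range on either day. The log2 change was -0.89 (SE 0.12, adjusted p = 1.02e-07) at 0.09 uM over days 3-5 and -0.95 (SE 0.15, adjusted p = 7.48e-06) at 0.18 uM on day 3. In doxorubicin it was -0.35 and -0.70 at 59.88 and 119.76 nM, with day 3 arrays of 9179 to 12986 that overlapped vehicle and day 5 arrays of 3092 to 6885, all below vehicle. The day 5 doxorubicin arrays were also those with high ACTB 3′ to 5′ ratios, whose part in the fall was not tested. On day 3 alone the 2 doxorubicin changes were 0.10 and 0.17. Against vehicle of the same plate rows the change at 59.88 nM over days 3-5 was -0.16 and was not called. ARA-C gave no call over days 3-5 at either dose. At 0.17 uM the days lay apart: the day 3 arrays read 12269, 13371 and 11850, all above vehicle (log2 0.35, adjusted p = 0.0892), and the day 5 arrays 7993, 5134 and 7597, all below it (log2 -0.68, adjusted p = 0.000122).

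IGF1, the ligand, rose with ARA-C and with doxorubicin. Probe set 209542_x_at read 428, 418 and 396 on day 3 and 531, 518 and 562 on day 5 in ARA-C 0.34 uM, against 323, 250, 156, 176 and 217 on day 3 and 93.0 to 126 (median 105) on day 5 in vehicle. The 0.17 uM arrays read 452, 341 and 683 on day 3 and 343, 278 and 424 on day 5. All 12 ARA-C arrays stood above vehicle of their day. The log2 change was 1.40 and 1.63 (SE 0.15 each, adjusted p = 5.88e-11 and 1.03e-12) in ARA-C 0.17 and 0.34 uM and 1.10 and 0.78 in doxorubicin 59.88 and 119.76 nM. Of the 4 IGF1 probe sets, 209540_at, 209542_x_at and 211577_s_at rose in all 4 treatments, and 209541_at rose in ARA-C 0.34 uM (log2 1.27) and fell in doxorubicin 119.76 nM (log2 -0.90). That fall was -0.30 (adjusted p = 0.396) without day 5 replicate 1, and on day 3 alone the value was 0.70. Against vehicle of the same plate rows the doxorubicin calls of 209540_at at 59.88 nM (log2 0.24) and of 211577_s_at at 119.76 nM (log2 0.53) were lost. In puromycin 0.09 uM 209540_at was called higher (log2 0.75, adjusted p = 0.00301), a call lost against vehicle of the same rows (log2 0.46, adjusted p = 0.0913).

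IGF1R gave different answers by probe set, with a correlation of 0.30 between 203627_at and 203628_at. Probe set 203628_at read 439, 490 and 392 in doxorubicin 59.88 nM and 396, 271 and 310 in 119.76 nM on day 3, against 1082, 924, 786, 889 and 783 in vehicle. On day 5 it read 332, 401 and 280 in doxorubicin 59.88 nM, 189 and 232 in 119.76 nM and 351, 356 and 366 in ARA-C 0.17 uM. Vehicle on day 5 read 1158, 918 and 682 in plate rows A-F and 2453, 2687 and 2670 in rows G-H. No treated array of ARA-C or doxorubicin reached vehicle on either day. The log2 change over days 3-5 was -1.32 and -1.19 in ARA-C 0.17 and 0.34 uM and -1.61 and -2.16 in doxorubicin 59.88 and 119.76 nM (SE 0.19 for the first 3 and 0.21 for the last, adjusted p = 7.04e-13 at 119.76 nM). Against vehicle of the same plate rows they were -1.03, -1.51, -1.31 and -1.87, all called. On day 3 alone the ARA-C changes were -0.55 and -0.68 and were not called (adjusted p = 0.134 and 0.0838). Probe set 203627_at fell in doxorubicin, by 0.35 and 1.04 on the log2 scale, and was not called in ARA-C; it read 702, 592 and 737 in ARA-C 0.17 uM and 810, 772, 791, 827 and 862 in vehicle on day 3. The fall of 203627_at at 59.88 nM was -0.19 (adjusted p = 0.357) at a common median and 0.013 with quantile normalization, and was not called without day 3 replicate 2 (-0.28) or day 5 replicate 1 (-0.31). Its day 5 arrays read 482, 567 and 593, within the vehicle range of 327 to 743. Probe set 208441_at was near or below the floor and rose in ARA-C 0.34 uM (log2 1.16, adjusted p = 0.0131). In puromycin 0.09 uM 203628_at was called lower (log2 -0.65, adjusted p = 0.0215), but against vehicle of the same rows it was -0.35 (adjusted p = 0.257).

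IGF2R and IRS1 moved less. IGF2R (201393_s_at) read 2323, 2925 and 2309 in doxorubicin 59.88 nM on day 3 and 1761, 1418 and 1566 on day 5, against 1816, 1358, 1483, 1366 and 1647 on day 3 and 903 to 1227 (median 1194) on day 5 in vehicle, without overlap. In ARA-C 0.34 uM it read 2122, 1976 and 1729 on day 3 and 2022, 2113 and 1997 on day 5. The log2 change was 0.61 in both (SE 0.17 each), and for ARA-C 0.34 uM it was not called on day 3 alone (0.34, adjusted p = 0.422). In doxorubicin 119.76 nM this probe set read 2586, 2279 and 1807 on day 3 and 499 and 439 on day 5. The day 5 arrays lay below all vehicle, and they had high ACTB ratios, whose part was not tested. In ARA-C 0.17 uM it fell by 0.48 on the log2 scale (adjusted p = 0.0182); its day 5 arrays read 813, 205 and 814, and the one at 205 had the ACTB ratio of 5.07. Without that array the change was -0.15 (adjusted p = 0.39), and with quantile normalization it was -0.03. On day 3 alone this change was 0.14, and against vehicle of the same rows -0.45 (adjusted p = 0.0892). Probe set 201392_s_at was called higher in ARA-C 0.34 uM and lower in puromycin 0.09 uM. Against vehicle of the same rows neither was called (log2 0.27, adjusted p = 0.271, and -0.35, adjusted p = 0.325). In doxorubicin 59.88 nM 201392_s_at read 991, 1089 and 677 on day 3 and 1127, 568 and 601 on day 5. Vehicle read 427 to 731 and 313 to 519. IRS1 (204686_at) was called once, in doxorubicin 119.76 nM (log2 -0.52, SE 0.13, adjusted p = 0.0007), where it read 434, 306 and 314 on day 3 and 344 and 245 on day 5, against 346, 418, 324, 373 and 397 on day 3 and 343 to 746 (median 604) on day 5 in vehicle. On day 3, 1 array lay above and 2 below the vehicle range, and on day 5, 1 of 2 lay below it. On day 3 alone the change was -0.09 (adjusted p = 0.815), and with quantile normalization it was 0.023 (adjusted p = 0.914).

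**Figure D3:**
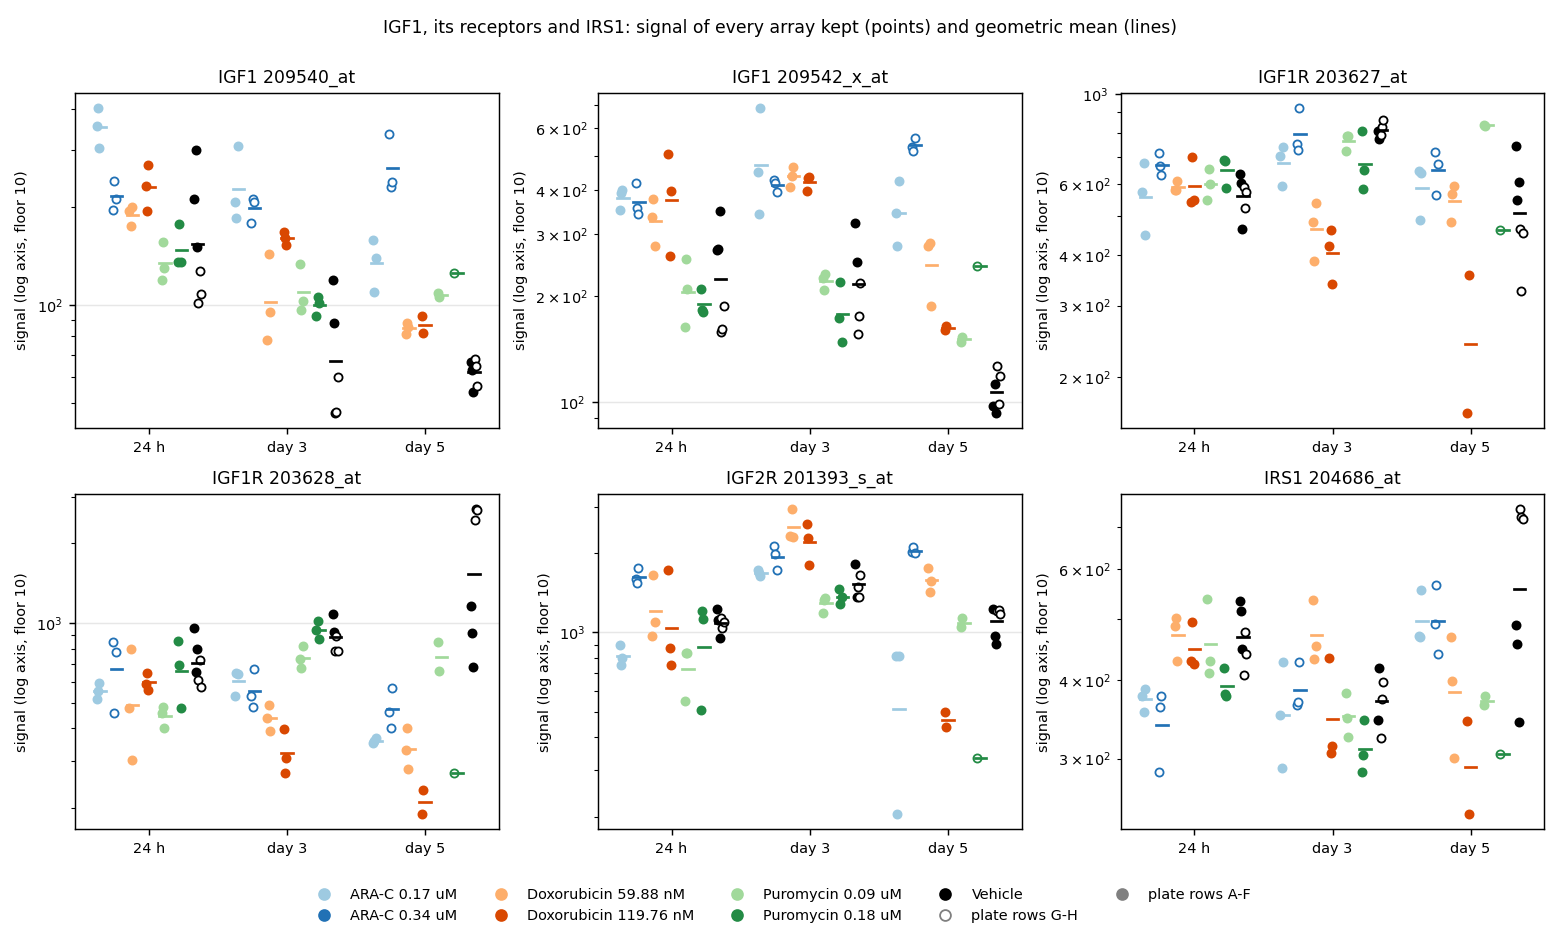
Signal (log axis, values under 10 drawn at 10) of IGF1, IGF1R, IGF2R and IRS1 probe sets on each array, with points for arrays, lines for the geometric mean, and open points for plate rows G-H. The day 5 vehicle points of IGF1R 203628_at split into 682 to 1158 in rows A-F and 2453 to 2687 in rows G-H, and all ARA-C and doxorubicin points of that day lie below both.

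At 24 h fewer member probe sets were called than on the later days. ARA-C raised 5 of 23 at 0.17 uM (21.7%) and 7 at 0.34 uM (30.4%) and lowered 0. Of all probe sets 5.46% and 6.82% were higher and 8.94% and 2.35% lower. The median over all probe sets was 0.20 in ARA-C 0.34 uM. Doxorubicin raised 1 at 59.88 nM and 3 at 119.76 nM and lowered 0, against 2.61% and 6.72% higher and 2.78% and 7.77% lower. Puromycin raised 0 and lowered 2 at 0.09 uM and 1 at 0.18 uM, against 2.13% and 3.42% higher and 8.36% and 4.32% lower. The ligand probe set IGF1 209540_at read 355, 402 and 303 in ARA-C 0.17 uM, against 101 to 300 (median 139) in vehicle, a log2 change of 1.19 (SE 0.24, adjusted p = 0.000492). With vehicle of rows A-F alone the rise was 0.73 (SE 0.22, adjusted p = 0.0156). IGFBP6 read 201, 258 and 221 in ARA-C 0.34 uM and 222, 167 and 187 in doxorubicin 119.76 nM, against 67.4 to 125 (median 76.2) in vehicle. These were log2 changes of 1.42 (SE 0.21, adjusted p = 3.65e-06) and 1.18 (SE 0.21, adjusted p = 5.18e-05) without overlap. IGFBP4 rose in ARA-C 0.17 and 0.34 uM (log2 0.95 and 0.99) and fell in puromycin 0.09 uM (log2 -0.76, adjusted p = 0.0327). The fall was -0.98 against vehicle of the same rows (adjusted p = 0.000332), and its call was lost at a common median (-0.45), with quantile normalization (-0.47), with the plate part (-0.69) or the replicate (-0.68) as a block, and without any 1 of 6 arrays (vehicle replicates 1 to 4, puromycin replicates 1 and 3). IGFBP2 read 4445, 5869 and 4931 in puromycin 0.09 uM, against 8084 to 9860 in vehicle (log2 -0.83, SE 0.15, adjusted p = 0.000123). IGFBP5 211959_at, by contrast with days 3-5, was not called at either doxorubicin dose. It read 102, 58.0 and 96.4 in 59.88 nM and 69.9, 65.0 and 64.9 in 119.76 nM, against 45.6 to 68.4 (median 57.5) in vehicle. In ARA-C 0.17 uM it read 141, 149 and 120 and was called higher, though not without replicate 2 (log2 1.19, adjusted p = 0.0665). Its call in ARA-C 0.34 uM was lost without replicate 2 (log2 0.65, adjusted p = 0.501). In ARA-C 0.34 uM the count of 7 was 1 without replicate 2, the array with few signals under 10. The IGF1 209542_x_at rise in doxorubicin 119.76 nM (log2 0.75) was 0.34 and not called against vehicle of the same rows.

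The 3 pairs of compounds were compared directly at EC50 over days 3-5. Doxorubicin 59.88 nM and puromycin 0.09 uM differed in 18 of 23 member probe sets, against 29.8% of all, and ARA-C 0.17 uM and puromycin in 15, against 40% (8888 of 22215). ARA-C and doxorubicin differed in 7, against 25.2%. IGFBP5 211959_at was 6.0 higher on the log2 scale in doxorubicin than in puromycin (95% interval 5.38 to 6.62, adjusted p = 5.96e-22) and 3.69 higher in ARA-C than in puromycin (3.07 to 4.31). IGFBP4 was 2.71 higher in doxorubicin and 2.59 higher in ARA-C than in puromycin, and IGFBP6 2.51 and 1.79 higher. ARA-C minus doxorubicin was -2.31 for IGFBP5 211959_at (interval -2.89 to -1.72, adjusted p = 2.36e-08), -3.14 for IGFBP3 210095_s_at (-3.98 to -2.29), -0.72 for IGFBP6 and 0.91 for IGF1 209540_at (0.51 to 1.31, adjusted p = 0.000455). The probe sets of IGFBP4, IGFBP7 and IGF1R did not differ past the threshold between ARA-C and doxorubicin; the interval was -0.52 to 0.27 for IGFBP4, -0.54 to 0.83 for IGFBP7 201163_s_at and -0.16 to 0.72 for IGF1R 203628_at.

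**Figure D4:**
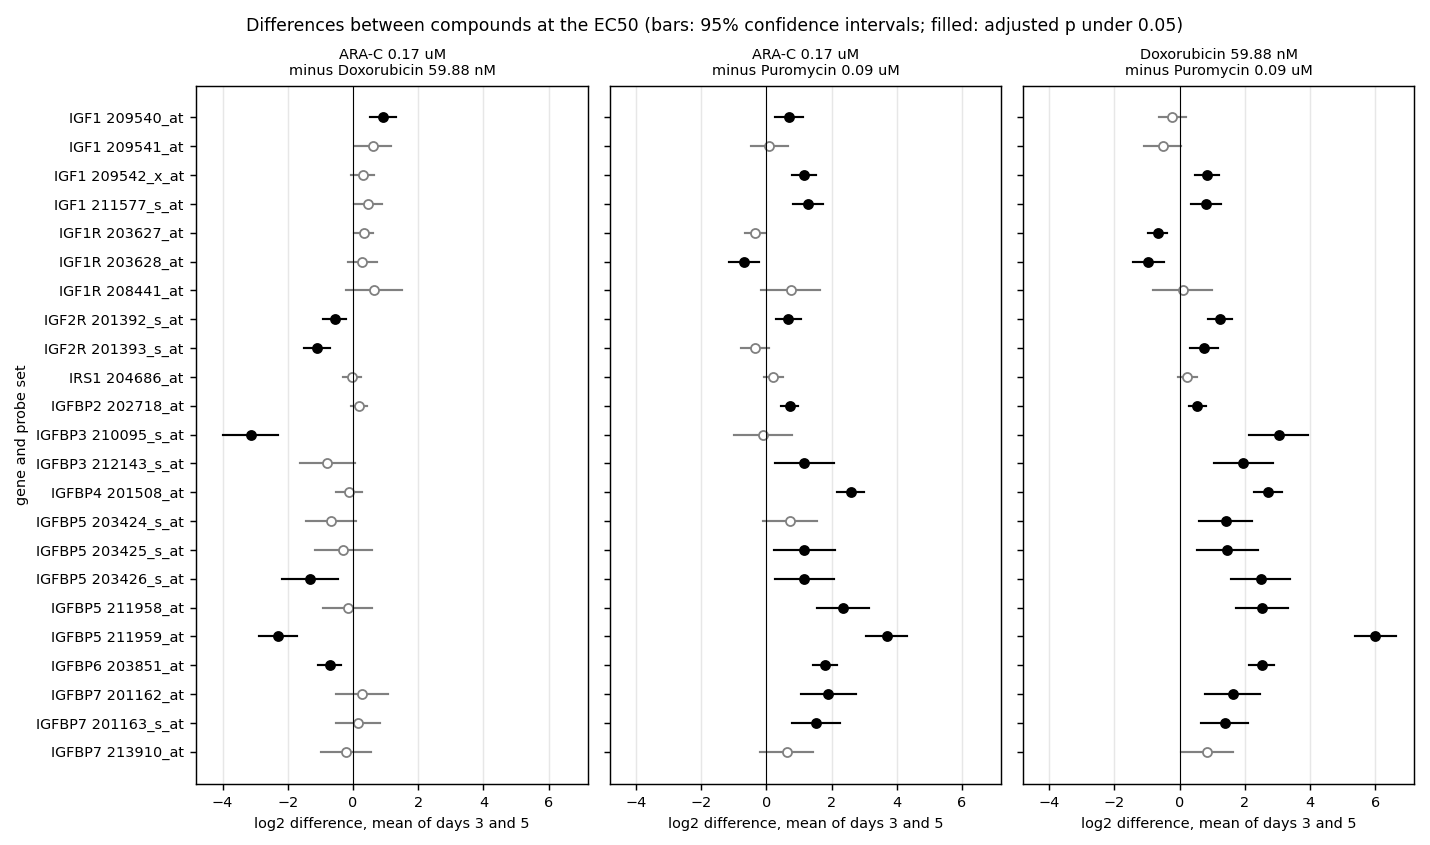
Log2 difference between compounds at EC50 over days 3-5 for each member probe set, with points for the estimate and bars for the 95% interval. The IGFBP5 211959_at point stands at 6.0 for doxorubicin minus puromycin, 3.69 for ARA-C minus puromycin and -2.31 for ARA-C minus doxorubicin.

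The shares of members that differed between doses of a compound lay near those over all probe sets. Between doxorubicin 119.76 and 59.88 nM over days 3-5, 6 member probe sets (26.1%) differed, all lower at 119.76 nM, against 21.1% of all. They were IGF1 209541_at, IGF1R 203627_at, both IGF2R probe sets, IRS1 and IGFBP2, with log2 differences of -0.35 to -0.97. The count was 2 without the 119.76 nM day 5 replicate 1. Between puromycin 0.18 and 0.09 uM on day 3, 0 of 23 differed (limma; 1 at an unadjusted p under 0.05), against 0.356%. For ARA-C the doses lay in different plate rows, so each was set against vehicle of its own rows, and 3 differed, against 17.7%, all higher at 0.34 uM. IGF1 209540_at was 0.87 higher (SE 0.22, adjusted p = 0.00409), IGF1 211577_s_at 0.87 and IGF2R 201393_s_at 1.02.

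Some changes differed between days 3 and 5. The difference between the day 5 and the day 3 change passed the threshold for 4 members in ARA-C 0.17 uM (against 36.1% of all), 2 in 0.34 uM (6.61%), 5 in doxorubicin 59.88 nM (13.8%), 8 in 119.76 nM (37.7%) and 0 in puromycin 0.09 uM (1.02%; limma, 2 at an unadjusted p under 0.05). Over all probe sets the median of this difference was -0.65 and -0.02 in ARA-C 0.17 and 0.34 uM, -0.18 and -0.40 in doxorubicin 59.88 and 119.76 nM, and -0.07 in puromycin. IGFBP4 and IGFBP2 were lower on day 5 relative to vehicle in ARA-C 0.17 uM and both doses of doxorubicin, with log2 differences of -1.25 to -1.92 for IGFBP4 and -0.91 to -1.74 for IGFBP2. IGF1R 203628_at was lower as well, with differences of -1.18 to -1.54. These 3 probe sets were among the 6 that differed between plate rows in vehicle of day 5, while the treated arrays lay in rows A-F. With vehicle of rows A-F alone IGFBP4 was -0.62, -0.24 and -0.91 in ARA-C 0.17 uM, doxorubicin 59.88 nM and 119.76 nM, the last alone being called (adjusted p = 0.129, 0.83 and 0.0201). IGFBP2 was -0.72, -0.60 and -1.43, of which the second was not called (adjusted p = 0.0122, 0.123 and 4.18e-06), and IGF1R 203628_at was -0.60, -0.24 and -0.46, none called (adjusted p = 0.205, 0.861 and 0.376). Of all 19 called differences 9 kept their call against vehicle of the same rows: 1 of 4 in ARA-C 0.17 uM, 2 of 2 in 0.34 uM, 0 of 5 in doxorubicin 59.88 nM and 6 of 8 in 119.76 nM. The high ACTB ratios fell on the same treated arrays, and their part was not tested. In ARA-C 0.34 uM the 2 that differed were higher on day 5, IGF1 209542_x_at by 1.40 and IGFBP6 by 1.24. Set against vehicle of rows G-H, IGFBP4 (-1.42) and IGF1R 203628_at (-1.90) were called lower on day 5 there as well.

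Vehicle cells also moved with time in culture. Between day 3 and 24 h, 5 member probe sets changed (against 3.39% of all), among them IGF1 209540_at (log2 -1.19, adjusted p = 0.000126) and IGFBP4 (-1.03). Between day 5 and day 3, 6 changed (against 21.3%), among them IGFBP4 (log2 1.40), IGFBP5 211959_at (1.11), IRS1 (0.59) and IGF1 209542_x_at (-1.02). Between plate rows G-H and A-F within vehicle, 2 differed at 24 h (against 0.536%), 1 on day 3 (0.837%) and 6 on day 5 (22.3%). On day 5 these were IGF1 209541_at (log2 0.87), IGF1R 203627_at (-0.61) and 203628_at (1.53), IRS1 (0.78), IGFBP2 (0.68) and IGFBP4 (1.32, adjusted p = 7.92e-07). With puromycin 0.09 uM over days 3-5, vehicle of the same rows kept 4 of the 7 calls, those of IGFBP2 (log2 -0.70), IGFBP4, IGFBP5 211959_at (-1.18) and IGFBP6 (-0.67).

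Of the 52 other genes listed for IGF signaling, from ligands and insulin receptor to PI3K, AKT, mTOR and MAPK, 43 were measured. Over days 3-5, 4 rose and 13 fell in ARA-C 0.17 uM (9.30% and 30.2%, against 17.8% and 31.4% of all probe sets), and 11 rose and 4 fell in 0.34 uM (25.6% and 9.30%, against 14.9% and 15.5%). In doxorubicin 59.88 nM 6 rose and 14 fell (13.95% and 32.6%, against 13.6% and 27.2%), and in 119.76 nM 7 rose and 18 fell (16.3% and 41.9%, against 16.6% and 33.6%). In puromycin 0.09 uM 2 rose and 11 fell (4.65% and 25.6%, against 4.93% and 13.6%). The shares that fell in ARA-C 0.17 uM and doxorubicin 59.88 nM lay near those over all probe sets. In ARA-C 0.17 uM EIF4E, the cap-binding translation factor, read 1832 ± 60.7 on day 3 and 763 ± 304 on day 5, against 3770 ± 550 and 2784 ± 382 in vehicle (SD; log2 -1.49, adjusted p = 3.62e-14). PIK3CB, a catalytic subunit of PI3K, fell in ARA-C 0.17 uM (log2 -1.27) and in doxorubicin 59.88 nM (-1.19). AKT1 (-0.82) and IGF2BP3, which binds IGF2 mRNA (-0.79), were called lower in ARA-C 0.17 uM and not in 0.34 uM. AKT1 read 1068 ± 128 on day 3 and 299.6 ± 44.2 on day 5 in ARA-C 0.17 uM, against 944 ± 77.6 and 1052 ± 176 in vehicle. IGF2BP3 read 2325 ± 312 and 1086 ± 339, against 2265 ± 185 and 3284 ± 715, so that for both genes the day 5 mean alone lay below vehicle, on arrays with high ACTB ratios whose part was not tested. Doxorubicin lowered MAPK3 (-1.30) and raised FOXO1, a transcription factor that AKT holds out of the nucleus (1.08), and GRB14, an adaptor that inhibits the insulin receptor (1.22). GRB14 read 450 ± 55.2 on day 3 and 240 ± 49.5 on day 5 in doxorubicin 59.88 nM, against 117 ± 20.0 and 174 ± 39.9 in vehicle. Its mean lay above vehicle in ARA-C 0.17 and 0.34 uM too (285 and 328 on day 3, 200 and 403 on day 5). So did that of FOXO1 (291 and 235 on day 3, 260 and 388 on day 5, against 178 and 171 in vehicle). In puromycin 0.09 uM RPS6KB2, an S6 kinase (-0.95), GRB14 (-0.80), TSC2, which restrains mTOR (-0.75), and INSR, the insulin receptor (-0.75), fell. INSR read 139 ± 2.48 in puromycin 0.09 uM on day 5, against a widely spread 409 ± 244 in vehicle. With vehicle of rows A-F alone INSR was -0.17 (adjusted p = 0.827) and TSC2 -0.43 (adjusted p = 0.234), neither called.

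The group means of IGFBP5 211959_at ranged over 6.69 log2 units across the 21 groups. The probe sets whose group means were most like it were those of MMP3, a matrix metalloproteinase (Pearson r = 0.94), CLDN5, a tight junction protein (0.94), FUCA1, a lysosomal fucosidase (0.94), MCAM, a cell adhesion molecule (0.94), and GPR4, a proton-sensing receptor (0.93). The groups share the arrays, cell line and vehicle, and the likeness is a description only.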

How the data were processed

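A673 cells were profiled on 68 Affymetrix high-throughput U133 arrays. Per the labels, the authors extracted RNA with Trizol and processed the arrays with MAS5; the deposited values are its linear intensity signals, 1 per probe set, whose mean is nearly the same on every array, and the MAS5 version is not given in the sources used here. MAS5 subtracts mismatch signal, so dim probe sets scatter widely and are raised by a poor array. Here signals were set to at least 10 and at most 16000, as in the study's methods, and log2 transformed. Control probe sets (715 of 22930) were left out. A model of group means was fitted with limma 3.58.1 in R 4.3.3 (eBayes with trend, Benjamini-Hochberg over all 22215 probe sets, threshold 0.05, two-sided; 46 residual degrees of freedom and 5.04 from the prior), and tested on simulated data. Puromycin 0.09 uM day 5 replicate 3, whose blood cell markers were high, was left out. Members and lists were chosen with earlier results of these data known. All member probe sets are named; of other IGF pathway genes, up to 4 per comparison at EC50 with the largest called change at the probe set of highest mean signal; and the 5 probe sets with 1 symbol whose 21 group means correlate best with IGFBP5 211959_at. Alternatives were floors of 32 and 1, no cap, no trend, a common median, quantile normalization, dim probe sets left out (mean signal under the 40th percentile), the plate part or the replicate as a block, vehicle of the same plate part, only the arrays compared, the array left out kept, and each array left out in turn; 2 more, day 3 alone and the 2 arrays with few signals under 10 left out, were chosen after seeing the data. The number of arrays limits the precision.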

Additional observations from a re-analysis of the deposited data

Results flagged for a closer look

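Among 69 sets of vehicle values (23 probe sets at 3 times), 8 had an array farther from the rest than Dixon's 95% value allows. Where all other arrays were raised to the floor, any single array above it was flagged. This held for the flagged sets of IGF1R 208441_at, IGFBP3 212143_s_at, IGFBP5 203424_s_at, and IGFBP7 201162_at and 213910_at. The chance rate of about 1 in 20 does not hold for such sets, so the 8 cannot be read against it. On day 3 replicate 1 read 168 for IGF1 211577_s_at (next 88.5), 34.9 for IGF1R 208441_at (next 6.18) and 15.5 for IGFBP5 203424_s_at (next 8.09). At 24 h IGF2R 201392_s_at read 427 in replicate 3, IGFBP3 212143_s_at 22.7 in replicate 6, and IGFBP7 213910_at 28.5 in replicate 2. On day 5 IGFBP5 203426_s_at read 25.8 in replicate 5 and IGFBP7 201162_at 24.5 in replicate 2. Most of these probe sets lie near the floor.

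The day 5 change differed from the day 3 change (limma, adjusted p under 0.05) in 19 cases, on the log2 scale. In ARA-C 0.17 uM the difference was -1.54 for IGF1R 203628_at, -1.25 for IGF2R 201393_s_at, -1.03 for IGFBP2 and -1.62 for IGFBP4. In ARA-C 0.34 uM it was 1.40 for IGF1 209542_x_at and 1.24 for IGFBP6. In doxorubicin 59.88 nM it was 0.91 for IGF1R 203627_at, -1.18 for IGF1R 203628_at, -0.89 for IRS1, -0.91 for IGFBP2 and -1.25 for IGFBP4. In doxorubicin 119.76 nM it was -3.18 for IGF1 209541_at (adjusted p = 1.52e-06), -1.40 for IGF1R 203628_at, -1.46 and -1.78 for IGF2R 201392_s_at and 201393_s_at, -0.85 for IRS1, -1.74 for IGFBP2, -1.98 for IGFBP3 212143_s_at and -1.92 for IGFBP4. Against vehicle of the same plate rows 9 of the 19 kept their call and 10 lost it. The 5 of doxorubicin 59.88 nM were all lost, at 0.57, -0.24, -0.46, -0.60 and -0.24 in the order given. Also lost were IGF1R 203628_at (-0.60), IGF2R 201393_s_at (-1.09) and IGFBP4 (-0.62) in ARA-C 0.17 uM, and IGF1R 203628_at (-0.46) and IRS1 (-0.41) in doxorubicin 119.76 nM.

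The puromycin 0.09 uM day 5 array that was left out read above every day 5 vehicle array for 12 member probe sets. These were IGF1 209541_at (191, highest vehicle 179.6) and 211577_s_at (91.4, 76.3), IGF1R 208441_at (226, 33.0), IGF2R 201393_s_at (1403, 1227), IGFBP3 210095_s_at (156, 33.7), IGFBP5 203424_s_at (44.2, 9.41), 203425_s_at (178, 54.1) and 203426_s_at (159.9, 25.8), IGFBP6 (95.2, 90.1) and IGFBP7 201162_at (97.8, 24.5), 201163_s_at (423, 34.1) and 213910_at (102, 34.8). The summed signal of the blood cell markers on this array was 68886, against at most 396 on the arrays kept.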

How the results depend on the processing

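Of 175 called member changes 85 were kept under every alternative run, 50 were lost without at least 1 array and 0 reversed by leaving out an array. The counts below are of member probe sets past the threshold, and the cause of each difference was not tested unless fewer arrays or probe sets were used. With vehicle of the same plate rows the 24 h count was 3 for ARA-C 0.17 uM, 4 for doxorubicin 59.88 nM and 4 and 2 for puromycin 0.09 and 0.18 uM, the days 3-5 count for puromycin 0.09 uM was 4, the puromycin dose count 1, and the day difference 2 and 7 for ARA-C 0.17 and 0.34 uM and 0 for doxorubicin 59.88 nM. The plate part as a block gave 3, 1 and 4 for ARA-C 0.17 uM and puromycin 0.09 uM at 24 h and puromycin 0.09 uM over days 3-5. Replicate numbers did not pair the arrays (43 pairs, correlation of deviations -0.265 to 0.253, 3 over 0.1), and the replicate block gave 3, 1 and 4 for the same comparisons and 3 for vehicle day 3 minus 24 h. With the left-out array kept the counts were 0 for doxorubicin 59.88 nM and puromycin 0.09 and 0.18 uM at 24 h, 1 for puromycin 0.18 uM on day 3, 1 for the doxorubicin dose, 1 for the ARA-C dose, 2, 5 and 3 for the day difference of doxorubicin 59.88 and 119.76 nM and puromycin, and 2 for vehicle day 3 minus 24 h. Day 3 alone gave 9 and 10 for ARA-C 0.17 and 0.34 uM and 1 for puromycin 0.09 uM. With dim probe sets left out it was 10 for ARA-C 0.34 uM, 12 for doxorubicin 59.88 nM and 11 for doxorubicin minus puromycin. A common median gave 0 for doxorubicin 59.88 nM at 24 h, 2 for its day difference and 6 for the ARA-C dose. Quantile normalization gave 2 and 1 for doxorubicin 59.88 nM and puromycin 0.09 uM at 24 h and 7 and 3 for the day difference of ARA-C 0.17 uM and doxorubicin 59.88 nM. A floor of 32 gave 4 for the ARA-C 0.34 uM day difference and 5 for the ARA-C dose. Only the arrays compared gave 1 and 4 for doxorubicin 119.76 nM and puromycin 0.09 uM at 24 h and 3 for the doxorubicin 59.88 nM day difference. Without the 2 arrays with few signals under 10, ARA-C 0.34 uM at 24 h gave 2 and the ARA-C dose 5. Leaving out single arrays gave 3 to 5 for ARA-C 0.17 uM, 1 to 8 for ARA-C 0.34 uM, 0 to 2 and 1 to 4 for doxorubicin 59.88 and 119.76 nM (1 without replicate 3) and 1 to 4 and 0 to 1 for puromycin 0.09 and 0.18 uM (0 without replicate 1), all at 24 h; 2 to 7 for the doxorubicin dose, 2 to 5 for the ARA-C dose, 3 to 5 and 0 to 2 for the day difference of doxorubicin 59.88 nM and puromycin, and 2 to 5 for vehicle day 3 minus 24 h. Log2 changes that reversed were, on day 3 alone, IGF2R 201393_s_at in ARA-C 0.17 uM (0.14), IGFBP2 in doxorubicin 59.88 nM (0.10) and 119.76 nM (0.17) and IGF1 209541_at in 119.76 nM (0.70); with quantile normalization, IGF1R 203627_at in doxorubicin 59.88 nM (0.013), and IRS1 in 119.76 nM (0.023) and in its day difference (0.11); and with the left-out array kept, IGF1R 203627_at for doxorubicin minus puromycin (0.13). Probe sets near the floor (IGFBP5 203424_s_at, IGFBP7 201162_at and 213910_at, IGFBP3 212143_s_at, IGF1R 208441_at) give changes of uncertain size.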
